A study of Mus musculus with 6 samples.

Results

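The genes of the colony-stimulating factors, of their receptors and of Spi1, a transcription factor that acts on several of these receptor genes, were followed in whole lungs of TNF+ and TNF- mice. They were chosen by gene symbol. The members are the ligands Csf1, Il34, Csf2 and Csf3, the receptor genes Csf1r, Csf2ra, Csf2rb, Csf2rb2 and Csf3r, and Spi1, and all 10 were found among the 49568 symbols of the count table. The TNF+ mice belong to the TNF-Tg line, which carries a human TNF transgene, and develop arthritis and pulmonary hypertension. The TNF- mice are their littermates without the transgene. All mice were C57BL/6 females, aged 4 months, with 3 mice per genotype. RNA came from the whole lung, so every value is a sum over all cell types of the organ, and fewer cells of a type cannot be told apart from less RNA per cell.

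Colony-stimulating factors are secreted proteins that keep myeloid cells alive and drive their growth and maturation. M-CSF (Csf1) and interleukin 34 (Il34) both bind the receptor tyrosine kinase encoded by Csf1r, on which most tissue macrophages depend. GM-CSF (Csf2) binds a receptor made of an alpha chain (Csf2ra) and a common beta chain (Csf2rb), and in the lung it is needed for alveolar macrophages to mature and to clear surfactant. The mouse has a further beta chain gene, Csf2rb2, whose product serves the interleukin 3 receptor. G-CSF (Csf3) acts through Csf3r and governs the output of neutrophils, and Spi1 encodes PU.1, a master transcription factor of the myeloid lineage.

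The 6 lungs had between 25396923 and 32529408 counts in all, so that 3 counts, taken as the lowest detectable level, were worth 0.0922 to 0.118 CPM (counts scaled to library size). Tnf, the mouse gene, had 106, 213 and 405 counts in TNF+ lungs against 16, 14 and 35 in TNF- lungs. A pair of lungs stood apart. In TNF+ 1 the non-coding gene Gm42418, which overlaps ribosomal RNA sequence, took 5.22% of all counts, against 0.0774% to 0.274% in the other lungs. In TNF- 1 the 8 squamous epithelium markers summed to 3524 CPM, against 9.99 to 31.0 CPM elsewhere, and skeletal muscle markers to 1458 CPM, against 13.5 to 32.2 CPM. Results were therefore also computed without both of these lungs, an alternative chosen after the data had been seen.

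Of the 10 genes, 8 were higher in TNF+ lungs by edgeR's quasi-likelihood test at a Benjamini-Hochberg adjusted p of 0.05, where 24.0% of the 19199 genes tested were called higher. The largest change was that of Csf2rb2 with a fold of 9.76, followed by Csf2rb with 6.48, Csf1r with 6.30, Spi1 with 5.01 and Csf2ra with 4.45. The ligands Il34 and Csf1 changed less, with folds of 2.93 and 2.54, and Csf3r had a fold of 1.55. Csf2 was tested and did not pass, and Csf3 had too few counts to be tested. No member was called lower by edgeR or DESeq2, nor at an unadjusted p under 0.05 by edgeR, where 23.4% of all genes tested were called lower and 47.4% were called in either direction. The lungs of the genotypes did not overlap for 7 of the 10 genes, all of them higher in TNF+ lungs, and the background for this was 58.7% of genes tested. Without the pair of lungs that stood apart, 7 members were called higher, Csf3r being the gene lost. Below, values per lung are normalized counts, that is counts brought to one common library size after TMM scaling.

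**Figure D1:**
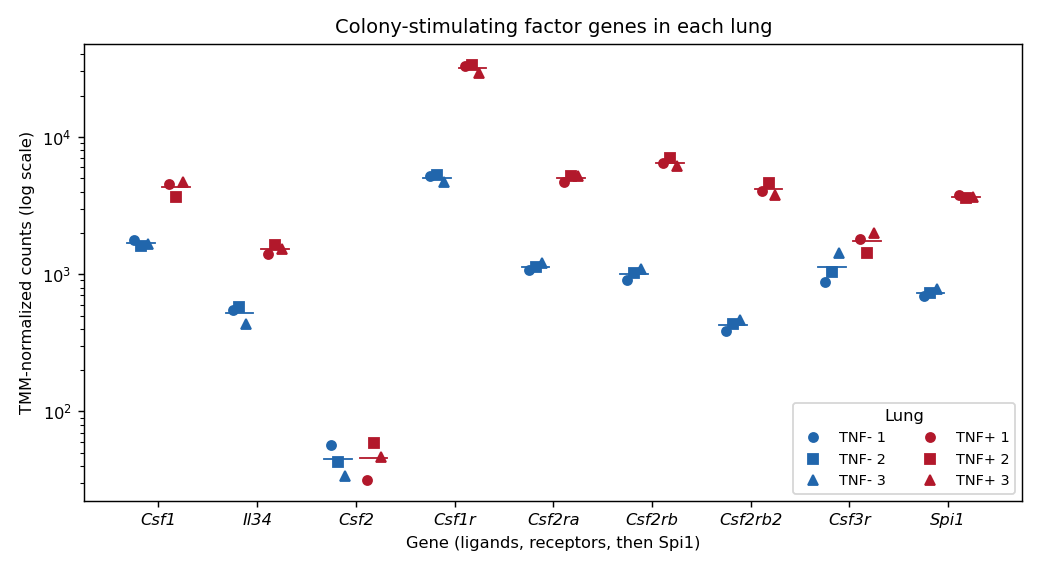
Normalized counts (log axis) of the 9 tested genes in each of the 3 TNF- and 3 TNF+ lungs, with marker shapes for the replicate numbers and horizontal lines for group means. Every TNF+ lung lies above every TNF- lung except for Csf2, where the genotypes are mixed, and Csf3r, where TNF+ 2 lies just under TNF- 3.

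Both ligands of the Csf1 receptor were higher in TNF+ lungs. Csf1, on the minus strand of chromosome 3 (mm10, 107741048 to 107760469), had 4534, 3662 and 4670 normalized counts in TNF+ lungs 1 to 3 and 1788, 1617 and 1662 in TNF- lungs. The means were 4289 ± 547 and 1689 ± 88.7 (SD, n = 3 each). TNF+ 2 was the lowest of its group and still above all TNF- lungs, which were close to each other. The log2 fold change was 1.34 ± 0.12 (SE), with adjusted p = 6.81e-05 by edgeR. Il34, on the minus strand of chromosome 8 (mm10, 110741829 to 110805924), had 1403, 1630 and 1533 normalized counts in TNF+ lungs and 550.4, 573.1 and 437.2 in TNF- lungs. Its means were 1522 ± 114 and 520.2 ± 72.8, the groups did not overlap, and the log2 fold change was 1.55 ± 0.13 (SE), with adjusted p = 5.16e-05 by edgeR. Both ligand genes kept their calls in every alternative run, with log2 fold changes between 1.26 and 1.45 for Csf1 and between 1.43 and 1.62 for Il34.

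The other ligand genes were scarce. Csf2 did not pass the test, and Csf3 could not be tested. Csf2, on the minus strand of chromosome 11 (mm10, 54247271 to 54249667), had 24, 57 and 49 raw counts in TNF+ lungs and 60, 45 and 38 in TNF- lungs. After normalization the counts were 31.6, 58.9 and 46.3 in TNF+ lungs and 57.3, 43.1 and 33.8 in TNF- lungs, so that the groups overlapped. The highest and the lowest value of the 6 both came from TNF+ lungs. The log2 fold change of Csf2 was 0.04, with a 95% interval from -0.69 to 0.77 (adjusted p = 0.932 by edgeR), so a change inside that interval could not be told from none with these lungs. Without the pair of lungs that stood apart it was 0.41 (adjusted p = 0.431 by edgeR). Csf3, on the plus strand of chromosome 11 (mm10, 98701263 to 98703629), had 5, 0 and 4 counts in TNF+ lungs and 0, 0 and 1 in TNF- lungs, and did not pass the filter on low counts. Its sums were 9 counts over the TNF+ lungs and 1 over the TNF- lungs, at or near the lowest detectable level, and no fold is given.

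Csf1r had the highest level per length of the 10 genes in each genotype and rose in TNF+ lungs. The gene lies on the plus strand of chromosome 18 (mm10, 61100598 to 61132149). Its normalized counts were 32669, 33590 and 29461 in TNF+ lungs and 5200, 5281 and 4708 in TNF- lungs, with means of 31907 ± 2168 and 5063 ± 310. The lowest TNF+ lung was far above the highest TNF- lung, and the spread within each genotype was small beside the gap. The log2 fold change was 2.66 ± 0.12 (SE), with adjusted p = 5.09e-06 by edgeR, which placed Csf1r at rank 71 of the tested genes by p. Over the alternatives it ranged from 2.60 to 2.70. Exons of Hmgxb3, on the opposite strand, overlap 15.1% of the exon bases of Csf1r, and the strand setting of the counting is not given in the sources used here. Hmgxb3 had 752, 1008 and 987 counts in TNF+ lungs and 1378, 1218 and 1356 in TNF- lungs, where Csf1r had 5442, 5510 and 5298.

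All chains of the GM-CSF receptor were higher in TNF+ lungs. Csf2ra, the ligand-specific alpha chain, lies on the minus strand of chromosome 19 (mm10, 61223957 to 61228429). It had 4658, 5174 and 5235 normalized counts in TNF+ lungs and 1065, 1122 and 1197 in TNF- lungs (means 5023 ± 317 and 1128 ± 65.9). The groups did not overlap, and the log2 fold change was 2.15 ± 0.10 (SE), with adjusted p = 4.99e-06 by edgeR. Csf2rb, the beta chain that carries the signal for GM-CSF, interleukin 3 and interleukin 5, lies on the plus strand of chromosome 15 (mm10, 78325752 to 78353847). It had 6412, 7029 and 6104 normalized counts in TNF+ lungs and 903.0, 1014 and 1097 in TNF- lungs (means 6515 ± 471 and 1005 ± 97.1). Here too the groups stood clear of each other, and the log2 fold change reached 2.70 ± 0.12 (SE), with adjusted p = 4.2e-06 by edgeR. Csf2rb2, its neighbour on the minus strand (mm10 chromosome 15, 78282507 to 78305721), had 4049, 4655 and 3794 normalized counts in TNF+ lungs and 386.1, 430.3 and 463.8 in TNF- lungs (means 4166 ± 442 and 426.7 ± 39.0). Its log2 fold change of 3.29 ± 0.12 (SE, adjusted p = 2.72e-06 by edgeR) was the largest of the members and ranked 22 of all tested genes by p. In raw counts it had 3071, 4501 and 4019 in TNF+ lungs and 404, 449 and 522 in TNF- lungs.

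Csf2rb and Csf2rb2 are close copies, which matters for how reads were divided between them. Their coding sequences of 2691 and 2637 bases (GENCODE M21, mm10) were identical at 95.4% of 2629 aligned bases, and the longest identical run was 242 bases. Reads were 100 bases long. Of all 100-base windows of the transcripts, 334 were shared, which is 4.63% of the windows of Csf2rb and 6.82% of those of Csf2rb2. The stretch of 60 coding bases where the genes differ most, with 13 differences, is printed here to make plain what tells their reads apart. It covers bases 304 to 363 of the Csf2rb coding sequence and bases 307 to 366 of that of Csf2rb2, written 5′ to 3′ with the bases that differ in capitals.
Csf2rb: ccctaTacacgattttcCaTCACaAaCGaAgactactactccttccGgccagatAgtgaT
Csf2rb2: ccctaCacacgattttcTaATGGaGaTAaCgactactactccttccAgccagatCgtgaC
Most of the transcript sequence therefore separates the copies. The paper states that its test of differential expression took uniquely mapped transcripts, which would leave out reads from the shared windows. The counting settings behind the deposited counts are not given in the sources used here.

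Csf3r, the receptor of G-CSF, showed the smallest change among the called genes. It lies on the plus strand of chromosome 4 (mm10, 126024550 to 126044440). Its normalized counts were 1802, 1417 and 1999 in TNF+ lungs and 882.0, 1038 and 1438 in TNF- lungs, with means of 1740 ± 296 and 1119 ± 287. TNF+ 2 lay slightly below TNF- 3, so the genotypes overlapped. The log2 fold change was 0.64 ± 0.20 (SE, 95% interval 0.19 to 1.09), with adjusted p = 0.0276 by edgeR, and the gene ranked 7892 of 19199 by p. The call rested on single lungs. By edgeR it was lost without TNF+ 1 (0.58, adjusted p = 0.0881), without TNF+ 3 (0.51, adjusted p = 0.110), without TNF- 1 (0.47, adjusted p = 0.0969) and without TNF- 2 (0.58, adjusted p = 0.0932). Without both lungs that stood apart the log2 fold change was 0.43 (adjusted p = 0.182 by edgeR), whereas without TNF- 3 it was 0.85 (adjusted p = 0.00572 by edgeR).

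Neutrophil markers, the genes of the cells in which Csf3r is best known, were mostly lower in TNF+ lungs. Of 18 listed neutrophil genes, 3 were higher, 11 were lower and 4 were not called, with a median log2 fold change of -1.33 against 0.03 over all genes tested. The largest falls were those of the granule protein genes Ngp (-5.90) and Mpo (-5.53). The 3 that were higher were the gelatinase gene Mmp9 (4.99), Mcemp1 (2.71) and Lcn2 (1.43). Cxcr2, a chemokine receptor of mature neutrophils that was chosen after its values were seen, had 48, 23 and 32 counts in TNF+ lungs and 142, 192 and 292 in TNF- lungs. The summed level of the list was nevertheless higher in TNF+ lungs, at 1284 to 1564 CPM against 513.4 to 857.1 CPM. Over all 6 lungs Lcn2, which epithelium also makes, held 50.0% of that sum. The mean normalized counts of Mmp9 were 16122 in TNF+ and 507 in TNF- lungs, and those of Lcn2 were 22791 and 8443. No listed gene was at 0 in all lungs. The part of these genes' cells in the values of Csf3r was not tested.

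Spi1 was 5.01-fold higher in TNF+ lungs with very little spread. The gene, on the plus strand of chromosome 2 (mm10, 91082390 to 91115756), had 3751, 3580 and 3643 normalized counts in TNF+ lungs and 688.0, 728.4 and 775.7 in TNF- lungs. The means were 3658 ± 86.6 and 730.7 ± 43.9, and no lung came near the other genotype. The log2 fold change was 2.32 ± 0.09 (SE), with adjusted p = 3.19e-06 by edgeR, the smallest standard error of the members and rank 26 of all tested genes by p.

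**Figure D2:**
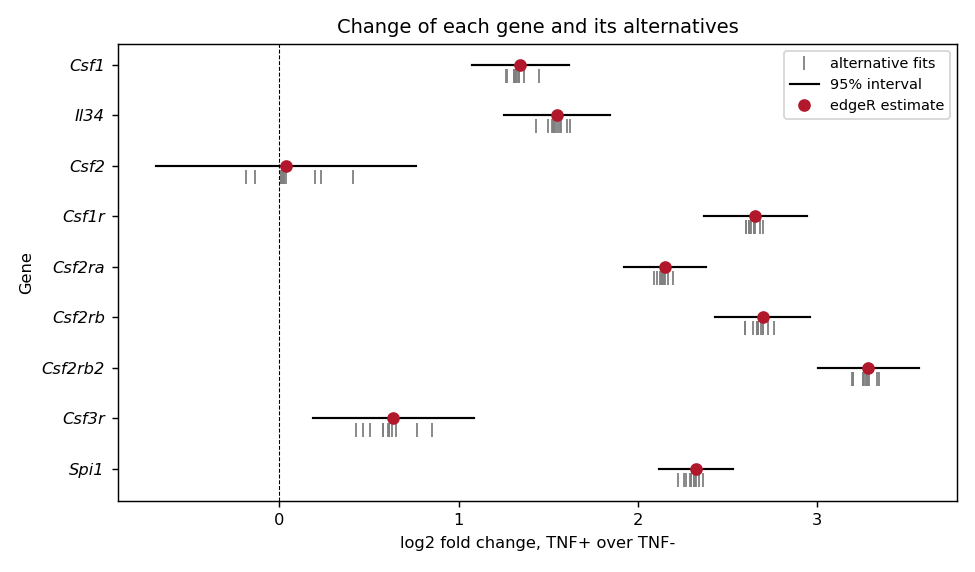
Log2 fold change, TNF+ over TNF-, of the 9 tested genes (points) with 95% intervals (lines) and the values of the alternative fits (grey ticks under each point). Csf2 is the one gene whose interval spans 0, and the alternatives of Csf3r run from 0.43 to 0.85.

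Promoter sequences from RefSeq (GRCm38.p6) were given for 5 of the 10 genes, namely Csf1, Csf2, Csf2ra, Csf2rb2 and Csf3r, as 250 bases before and 50 bases after the RefSeq start of transcription. They were searched on both strands for the PU.1 motif GAGGAAGT, its core GAGGAA, the C/EBP motif TTGCNNAA and an NF-kB motif (GGGA and CC with any 4 bases between). Of 32851 promoters of this length, 3.2% held the PU.1 motif, 28.3% its core, 10.8% the C/EBP motif and 20.7% the NF-kB motif. The core is part of the full PU.1 motif, so that each match to GAGGAAGT is also counted for GAGGAA. Sequences are printed for a ligand and for receptor chains that rose together with Spi1, 5′ to 3′ along the gene's own strand, with motif matches in capitals.
In Csf1 (chr3:107760470-107760719, minus strand) the capitals mark matches to the NF-kB motif, of which a pair overlaps.
Csf1: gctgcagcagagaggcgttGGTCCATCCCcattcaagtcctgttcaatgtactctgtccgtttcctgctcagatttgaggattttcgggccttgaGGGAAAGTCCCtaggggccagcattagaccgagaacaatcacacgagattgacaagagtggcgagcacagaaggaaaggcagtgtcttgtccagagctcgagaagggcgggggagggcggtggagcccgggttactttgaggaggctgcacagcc
In Csf2ra (chr19:61228419-61228668, minus strand) they mark a pair of adjoining GAGGAA cores just before the start.
Csf2ra: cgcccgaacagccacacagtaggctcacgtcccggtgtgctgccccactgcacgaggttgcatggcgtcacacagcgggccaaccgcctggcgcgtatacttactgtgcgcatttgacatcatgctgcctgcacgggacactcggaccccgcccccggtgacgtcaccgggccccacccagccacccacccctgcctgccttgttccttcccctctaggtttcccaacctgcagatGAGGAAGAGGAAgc
In Csf2rb2 (chr15:78305722-78305971, minus strand) they mark 1 core, read on the opposite strand.
Csf2rb2: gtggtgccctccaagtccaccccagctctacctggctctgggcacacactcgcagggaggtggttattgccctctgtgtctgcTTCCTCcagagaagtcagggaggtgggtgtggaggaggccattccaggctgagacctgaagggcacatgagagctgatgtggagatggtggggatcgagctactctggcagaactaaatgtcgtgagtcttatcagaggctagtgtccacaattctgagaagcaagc
A full PU.1 motif, also on the opposite strand, followed the start of Csf2rb2 at 28 bases and is shown in its 30-base surroundings (chr15:78305682-78305711).
Csf2rb2 after the start: gtgaaagggcactggcaACTTCCTCaatct
Csf3r held 1 core and 1 NF-kB match, and the window of Csf2 is not described, since it lies wholly upstream of the gene as GENCODE M21 places it. The matches describe letters in these windows, and binding was not measured.

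The order of the genes' levels was compared per length, as TPM (counts scaled to the length of the longest annotated transcript and to library size). In TNF- lungs Csf1r was highest at 62.1 TPM (58.9 to 66.8 over the lungs), followed by Csf2ra at 28.6, Csf1 at 23.4, Spi1 at 20.7, Csf3r at 18.6, Il34 at 16.7, Csf2rb at 11.8, Csf2rb2 at 5.19 and Csf2 at 3.24 TPM. Neighbours from Csf1 down to Il34 overlapped between lungs, and the rest of the neighbours did not. In TNF+ lungs Csf1r was again highest at 338 TPM (267 to 395), followed by Csf2ra at 112, Spi1 at 90.2, Csf2rb at 66.6, Csf1 at 51.8, Csf2rb2 at 43.9, Il34 at 42.9, Csf3r at 25.4 and Csf2 at 2.93 TPM. Of these neighbours, the step from Csf1r to Csf2ra and that from Csf3r to Csf2 were clear of overlap. The scale of TPM takes in every gene of a lung, Gm42418 included, and all 9 tested members had their lowest TPM among TNF+ lungs in TNF+ 1. With TMM-normalized counts per kilobase, each genotype kept the order it had by TPM. In TNF+ lungs the overlaps that remained were those of Csf1 with Csf2rb2 and of Csf2rb2 with Il34. Csf3r and Csf2rb thus stood in the order Csf3r above Csf2rb in TNF- lungs and Csf2rb above Csf3r in TNF+ lungs, without overlap on either occasion by normalized counts per kilobase of the longest transcript. In TNF- lungs this rests on the length taken, since with the mean transcript length Csf3r stood at 22.1 TPM, Il34 at 21.1 and Csf2rb at 20.9, and these neighbours overlapped. Csf3 was last in both genotypes, at 0.116 TPM in TNF+ and 0.0123 TPM in TNF- lungs.

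Ratios between genes within a lung were compared for 6 pairs. For them an exact two-sided permutation test over 3 against 3 lungs cannot go below p = 0.1, which is above the cutoff, so none could pass. The ratio of Csf2rb2 to Csf2rb counts was 0.632, 0.662 and 0.622 in TNF+ lungs and 0.428, 0.424 and 0.423 in TNF- lungs, a difference of 0.58 on the log2 scale (exact permutation p = 0.1, adjusted 0.12). The TNF- lungs were almost equal, and no TNF+ lung came near them. The ratio of Csf2ra to Csf2rb was lower in TNF+ lungs, 0.727, 0.736 and 0.858 against 1.18, 1.11 and 1.09, a log2 difference of -0.54 (exact permutation p = 0.1, adjusted 0.12). Every TNF+ lung lay below every TNF- lung.

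Relative to Ptprc, the gene of the pan-leukocyte protein CD45, Csf1r was higher in TNF+ lungs by 1.22 on the log2 scale (count ratios 4.74, 5.92 and 4.32 against 2.36, 1.93 and 2.10, exact permutation p = 0.1, adjusted 0.12). Relative to Spi1, Csf1r was higher by 0.33, with count ratios of 8.71, 9.38 and 8.09 against 7.56, 7.25 and 6.07 and the same p. Csf3r to Csf1r gave count ratios of 0.0552, 0.0422 and 0.0679 in TNF+ lungs and 0.170, 0.197 and 0.305 in TNF- lungs, a log2 difference of -2.00 with the same p. Groups did not overlap in these 5 ratios. The ratio of Csf1 to Il34, the ligands of one receptor, did overlap, with 3.23, 2.25 and 3.05 in TNF+ and 3.25, 2.82 and 3.80 in TNF- lungs (log2 difference -0.22, exact permutation p = 0.4).

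**Figure D3:**
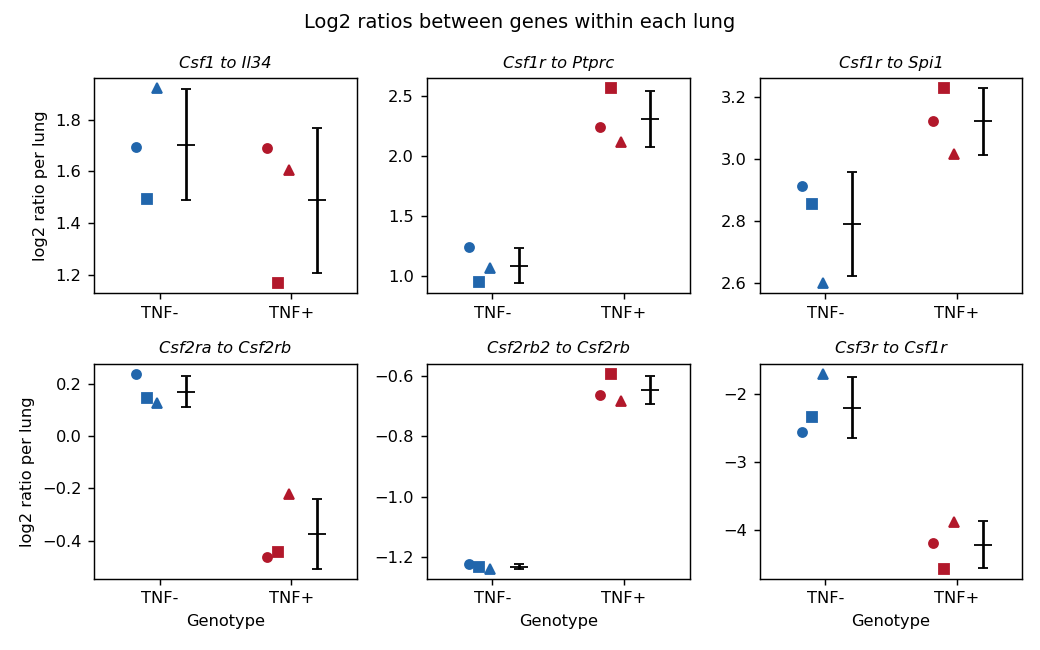
Log2 ratios of 6 gene pairs in each TNF- and TNF+ lung (coloured markers, shapes for replicate numbers), with mean ± SD of the 3 lungs beside them, each panel on its own axis. The genotypes are separate in every panel except that of Csf1 to Il34, and the TNF- lungs have almost the same ratio of Csf2rb2 to Csf2rb.

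A list of 25 genes held those that pass on the signal of these receptors and those that restrain it, such as Cish and Ptpn6. Of them, 16 were higher in TNF+ lungs, 3 were lower and 6 were not called, with a median log2 fold change of 0.53 against 0.03 over all genes tested. The largest rises were those of Tyrobp (2.85, adjusted p = 8.38e-06 by edgeR), an adaptor that works with the Csf1 receptor in macrophages, and of the phosphatase gene Ptpn6 (1.66, adjusted p = 6.51e-05 by edgeR). Tyrobp had 7271, 8830 and 8516 counts in TNF+ lungs and 1048, 1411 and 1530 in TNF- lungs, without overlap. The largest falls were those of Cish (-0.57, adjusted p = 0.00204 by edgeR), a STAT5-induced inhibitor of cytokine receptors, and of the kinase gene Mapk3 (-0.42, adjusted p = 0.0198 by edgeR). The call of Mapk3 was lost without TNF+ 3 or TNF- 2. Without the pair of lungs that stood apart, 10 of the 25 were higher and 2 lower.

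Of 10 related cytokine and receptor genes, 8 were tested, of which 3 were higher and 2 lower. Over all genes tested the shares were 24.0% higher and 23.4% lower. The median log2 fold change of the list was -0.09 (-0.17 without TNF+ 1, -0.04 without TNF+ 3 and -0.18 without both lungs that stood apart). Il5ra, the alpha chain that joins Csf2rb in the interleukin 5 receptor, had 30, 54 and 55 counts in TNF+ and 15, 15 and 16 in TNF- lungs (1.78 on the log2 scale, with adjusted p = 0.00119 by edgeR). Flt3, a receptor kinase of dendritic cell precursors, had a log2 fold change of 1.75 (adjusted p = 0.000108 by edgeR). Ptprz1, a further binding partner of interleukin 34, fell by 1.52 (adjusted p = 0.000878 by edgeR), and Kit, the stem cell factor receptor, fell by 0.78 (adjusted p = 0.00452 by edgeR). Il3 and Il5, ligands that use the beta chains, had too few counts to be tested. Of 20 myeloid transcription factor genes, 12 were higher and 1 lower, with a median of 0.91 (0.60 without TNF+ 1). Egr2, a regulator of macrophages, rose by 2.77 (adjusted p = 1.44e-05 by edgeR), and Klf4 fell by 0.72 (adjusted p = 0.00382 by edgeR).

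Most monocyte and macrophage markers and all pan-leukocyte markers of the lists were higher in TNF+ lungs, whereas alveolar macrophage markers moved in both directions. Of 18 monocyte and macrophage markers, 15 were higher and 2 lower, with a median log2 fold change of 2.20 and a summed level of 3872 to 4844 CPM in TNF+ against 2636 to 2881 CPM in TNF- lungs. Over all 6 lungs Ace, which fell, held 40.2% of that sum. Its mean normalized counts were 19507 in TNF+ and 68168 in TNF- lungs, so its share was larger in TNF- lungs. The largest rises were those of Ms4a7 (5.11) and C1qc (4.29), and the largest falls those of Lyve1 (-3.06) and Ace (-1.81), genes that vessels also express. All 4 pan-leukocyte markers were higher (median 1.38, summed level 1895 to 2233 against 728.3 to 915.6 CPM), among them Cd53 (2.07) and Ptprc (1.43). Each of the receptor genes Csf1r, Csf2ra, Csf2rb and Csf2rb2 therefore had a larger log2 fold change than Ptprc, while that of Csf3r was smaller. Of 18 alveolar macrophage markers, 7 were higher and 6 lower, beside 24.0% and 23.4% of all genes tested. Their median was 0.28 (0.19 without TNF- 1 and 0.17 without both lungs that stood apart). Marco (7.10) and Itgax (2.28) rose most and Cidec (-1.82) and Car4 (-1.72) fell most, of which Cidec lost its call without TNF+ 1, TNF+ 2, TNF- 3 or both lungs that stood apart. The summed level of that list was 3275 to 5000 CPM in TNF+ and 890.0 to 979.8 CPM in TNF- lungs. Over all 6 lungs Marco held 46.0% of that sum. Its mean normalized counts were 67751 in TNF+ and 494 in TNF- lungs, so its share was larger in TNF+ lungs. Siglecf, a defining surface marker of resident alveolar macrophages that was chosen after its values were seen, had 47, 79 and 89 counts in TNF+ and 187, 248 and 151 in TNF- lungs.

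Other cell types moved as well. Of the lymphocyte markers, 4 of 5 T cell genes were higher, with Cd4 (4.84) first and Cd3g (1.13) next, and 3 of 4 B cell genes, with Cd79a (1.04) and Ms4a1 (0.79). Cd3e was the T cell gene not called (0.23, adjusted p = 0.291 by edgeR). The summed levels were 322.2 to 465.2 against 34.7 to 62.2 CPM for T cells, and 207.7 to 234.4 against 96.4 to 175.7 CPM for B cells. Over all 6 lungs Cd4 held 80.6% of the T cell sum, with mean normalized counts of 10700 in TNF+ and 374 in TNF- lungs. Its share was larger in TNF+ lungs. Without both lungs that stood apart, 2 T cell genes and 1 B cell gene were called higher, and Cd3g and Ms4a1 lost their calls. Of 6 basophil, mast cell and eosinophil markers, 2 were tested and Prg2 (4.44) was higher. All 5 endothelial markers were lower, led by Vwf (-3.22) and Tek (-1.94), with 1213 to 1393 CPM in TNF+ against 3087 to 3883 CPM in TNF- lungs. Of 6 fibroblast markers 4 were lower, led by Col1a1 (-1.34) and Pdpn (-0.71), at 859.7 to 903.7 against 1195 to 1816 CPM, and 2 of 6 were lower without TNF+ 1, TNF+ 2, TNF+ 3 or TNF- 1. Of 8 alveolar type 2 markers 3 were lower, with Abca3 (-0.89) and Sftpb (-0.88) the largest falls, at 16311 to 20774 against 22969 to 27616 CPM. Of 8 squamous epithelium markers 4 were tested and 3 were lower, led by Krt5 (-6.54) and Calml3 (-3.29), and 3 of 5 skeletal muscle markers were lower, led by Myh4 (-6.38) and Tnnt3 (-4.69), lists whose sums were highest in TNF- 1. Without TNF- 1 the log2 fold change of Krt5 was -2.16, the log2 fold change of Calml3 was -1.43, the log2 fold change of Myh4 was 0.61 and the log2 fold change of Tnnt3 was -0.49. Then 2 squamous and 1 muscle marker were called lower, and the list medians were -1.13 and 0.14 in place of -3.79 and -4.69. Each of these 4 genes also lost its call without TNF+ 2 or TNF+ 3. In none of these lists was a gene at 0 in all lungs. The part of these changes in the values of the colony-stimulating factor genes was not tested.

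**Figure D4:**
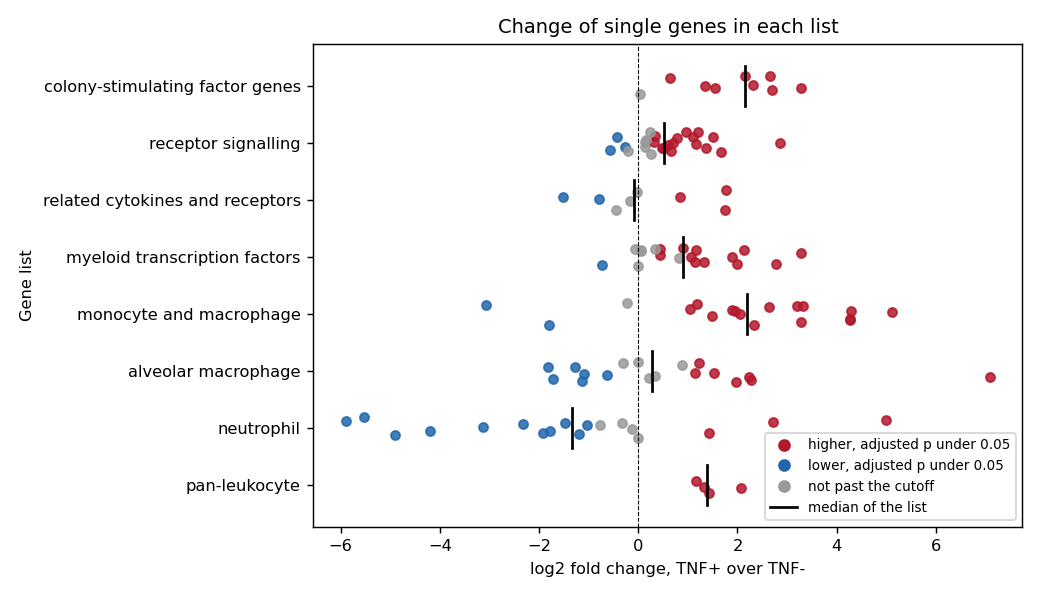
Log2 fold change, TNF+ over TNF-, of single tested genes in the colony-stimulating factor list and in 7 other lists, coloured by edgeR call at an adjusted p of 0.05, with black bars for list medians and random vertical scatter. The colony-stimulating factor genes and the monocyte and macrophage markers lie mostly to the right, and the neutrophil markers lie mostly to the left.

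The genes whose pattern over the 6 lungs was most like that of a member were found by the root mean square difference of log2 CPM, each gene centred on its own mean, among 14998 genes whose mean log2 CPM reached 1. This difference takes in the change between genotypes, so genes with like log2 fold changes lie near each other. Shared regulation was not tested. Nearest to Csf1r were Pik3cg (difference 0.0462), Slc6a20b (0.0715) and Itgam (0.0927), the last being the gene of the myeloid integrin CD11b. These 3 had log2 fold changes of 2.68, 2.81 and 2.64, beside 2.66 for Csf1r itself. Nearest to Csf1 were Ptprj (0.0636), Lyz2 (0.0709) and Tnfrsf11b (0.0768), the last encoding osteoprotegerin. Nearest to Csf2ra were Tlr6 (0.0667), Birc3 (0.0791) and Cxcl16 (0.0804). Nearest to Csf3r were Adam11 (0.0584), Socs3 (0.0942) and Ptbp2 (0.101). Socs3, which encodes an inhibitor of the G-CSF receptor, had 1036, 1002 and 1572 counts in TNF+ and 806, 819 and 1152 in TNF- lungs, and its log2 fold change was 0.59 (adjusted p = 0.0191 by edgeR). By edgeR the call of Socs3 was lost without TNF+ 1 (adjusted p = 0.0755), TNF+ 3 (0.0815), TNF- 1 (0.0778) or TNF- 2 (0.0726). It was also lost without the pair of lungs that stood apart (0.44, adjusted p = 0.162 by edgeR). Csf3r lost its call in the same fits, but Socs3 was picked for its likeness to Csf3r over these same lungs. The shared losses are therefore no added likeness, and a link between the genes was not tested.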

How the data were processed

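Poly(A) RNA of whole lungs was sequenced with stranded libraries and 100-base single-end reads. The authors trimmed the reads with Trimmomatic (version 0.36 in the submitters' processing notes), mapped them to mm10 with STAR (version 2.5.2b) and deposited raw counts per gene symbol made with featureCounts. The annotation and strand setting are not given in the sources used here.

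Genes that passed filterByExpr were tested with edgeR (version 4.0.16, under R version 4.3.3) after TMM normalization, by its quasi-likelihood test on genotype alone, at a Benjamini-Hochberg adjusted p of 0.05 over all 19199 genes tested. Standard errors are log2 fold changes divided by the square root of F. Log2 CPM used a prior count of 2, and ratios an exact two-sided permutation test over lungs. DESeq2 (version 1.42.0), the tool of the study, was an alternative, as were its size factors, scaling by total counts alone, the table without a filter on low counts, the replicate number as a block and each lung left out in turn. The fit without 2 lungs and the levels per kilobase were added after seeing the data. Lengths, positions and shared windows came from GENCODE M21. Of the symbols, 47240 had a length. The lungs came from separate mice, 3 against 3, and the lowest detectable level of 3 counts covers counting error only.

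The members and gene lists were chosen with earlier results of these data known. Named are all members, in each list the 2 called genes that rose most and the 2 that fell most, the 3 nearest patterns of Csf1r, Csf1, Csf2ra and Csf3r, Tnf, Gm42418 and the genes of the ratios. Hmgxb3, Il3, Il5, Lcn2 and genes marked so in the text stand outside this rule, and a value that the rule would name is not reported here. The scripts were tested on simulated data.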

Additional observations from a re-analysis of the deposited data

How the results depend on the processing

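The number of genes called was 9096, against 9134 with DESeq2, 9082 with its size factors, 8085 with total counts only, 9070 without a filter on low counts, 7347 to 9164 with each lung left out in turn, and 6064 without both lungs that stood apart (chosen after seeing the data). The replicate numbers of the labels name different mice, and same-numbered lungs did not deviate together (correlations across genes of -0.15, -0.0043 and -0.24). With the numbers as a replicate block, 7686 genes were called, and 8 members were again called higher. Csf1, Csf1r, Csf2ra, Csf2rb, Csf2rb2, Il34 and Spi1 kept their calls and direction in all 12 alternatives, with adjusted p up to 0.000898 by edgeR or DESeq2, and Csf3r lost its call in 5. The 6 ratios kept their direction with a prior count of 0.5 and with each lung left out. Counts of list genes that moved by over 1.5 times were, for genes called lower, receptor signalling (3 to 1 in the replicate block, where Mapk3 was lost, and without TNF+ 3 or TNF- 2), alveolar type 2 (3 to 5 with DESeq2), fibroblast (4 to 2 in 5 fits without lungs), basophil, mast cell and eosinophil (0 to 2 without TNF+ 3), squamous epithelium (3 to between 0 and 8) and skeletal muscle (3 to between 0 and 5). For genes called higher without both lungs, they were receptor signalling (16 to 10), T cell (4 to 2) and B cell (3 to 1). The log2 fold change of Myh4, a muscle gene, turned from -6.38 to 0.61 without TNF- 1 (-6.96 to 0.61 with each lung left out) and to 0.10 without both lungs, since most of its counts lie in TNF- 1. With the union of exons as length, Csf1 and Csf2rb2 changed places in the order of TNF+ lungs, and Spi1 and Csf3r in that of TNF- lungs, neighbours whose ranges overlapped. With the mean transcript length the order was kept, but Csf3r, Il34 and Csf2rb overlapped as neighbours in TNF- lungs. Depth limits what can be said of Csf3.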
